A study of Rattus norvegicus with 18 samples.

Results

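Rat nucleus pulposus cells given PDS for 24 hours were compared with their own controls. The 6 libraries of this comparison, 3 with PDS and 3 PDS controls, were chosen by their names in the deposited count table, out of 18 libraries in 6 groups. The cells came from Sprague Dawley rats aged 8 weeks and were grown in medium with fetal bovine serum. The 2 groups differed by PDS alone as far as the labels say, and neither its dose nor what the controls received is in the labels. The other 12 libraries hold cells given Phen-DC3 or Braco-19 for 24 hours and a control group for each. The titles of 1 control group give no compound, and it was matched to Braco-19 because it alone was left. They entered the fit of the spread and the comparison between compounds near the end. Each group's 3 libraries are described as biological repeats, with no word on whether they came from separate animals or cultures. So p-values here set each difference against how far these libraries spread, which may be partly technical.

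The nucleus pulposus is the gel-like core of the intervertebral disc, where cells live with little oxygen in a matrix of proteoglycans and collagens. PDS, short for pyridostatin, is a small molecule that binds G-quadruplexes. These are stacked structures that single-stranded DNA or RNA can form where several runs of guanines lie close together, and they are common in gene promoters and telomeres. In other cells, ligands of this kind are known to slow replication and transcription at such sites and to cause DNA breaks.

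Library totals were 16852019 to 17156645 counts with PDS and 16398223 to 16988858 counts in the PDS controls. Levels are in CPM, counts scaled to a common library size. Values after ± are SD over 3 libraries for CPM and standard errors for log2 fold changes, which are PDS minus PDS control throughout. The label of the cells was only partly borne out by marker genes. Of 19 markers of nucleus pulposus and notochord, 6 had 0 counts in all 6 libraries, among them the notochord factor Tbxt and the keratin Krt19. The transcription factors Pax1 and Foxf1, which mark the disc, were present (76.8, 78 and 75.1 CPM with PDS, against 79.4, 79.8 and 75.3 CPM in the controls for Pax1). Acan, the core protein of aggrecan and the main disc proteoglycan, had 2 to 7 counts per library with PDS and 2 to 5 counts in the controls. Col2a1, the cartilage collagen, had 9.13, 10.9 and 9.34 CPM with PDS, against 17.3, 18.4 and 16.3 CPM in the controls. Among 15 markers of fibroblasts and of the annulus, the outer ring of the disc, 2 had 0 counts in all 6 libraries. Col1a1, a fibrillar collagen in that list, had 18150 to 19471 counts per library with PDS and 18212 to 25769 counts in the controls. The transcription factor Scx, also in that list, had 1451 to 1655 and 1738 to 1836 counts in the same order. Ptprc, a pan-leukocyte marker, and Cdh5, an endothelial marker, had 0 counts in all 6 libraries, which allows up to 3 counts per library, or 0.175 to 0.183 CPM, for counting error only. The 20 macrophage markers summed to 2035 to 2155 counts with PDS and 1887 to 2034 in the controls, most of them from Cd14. In RNA from whole cultures, fewer cells of a kind and less RNA per cell cannot be told apart.

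PDS changed 1148 of 14184 tested genes, which is 8.09% of them, at an adjusted p under 0.05. Every adjusted p here comes from edgeR's quasi-likelihood test with Benjamini-Hochberg adjustment over all tested genes. Of these, 728 were higher with PDS (5.13%) and 420 lower (2.96%). Most changes were small: 524 of the higher and 269 of the lower genes changed by less than 1.5-fold, and 59 rose and 61 fell by more than 2-fold. The median log2 fold change of all tested genes was 0.02. In 1144 of the called genes all 3 PDS libraries lay on 1 side of all 3 controls, an arrangement found in 33.3% of all tested genes. The 6 libraries separated by treatment along the first principal component, which held 37.2% of the variance. The balance of rises and falls depended on the scaling, since upper-quartile scaling gave 575 higher and 527 lower genes. The counts also depended on single libraries. Refits that left out 1 of the 6 libraries gave 372 to 560 higher genes, lowest without PDS library 3 and 423 without PDS control 2, and 191 to 307 lower genes, lowest without PDS library 3. Against all 9 control libraries of the series, 3 of which have the different baseline described with the other compounds, 67 genes were called higher and 35 lower, and 51 of the genes named here changed sign. A gene said below to have risen or fallen also passed the threshold in all 6 of these refits, unless its exceptions are given beside it. Libraries are named PDS 1 to 3 and PDS control 1 to 3 after their labels.

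**Figure D1:**
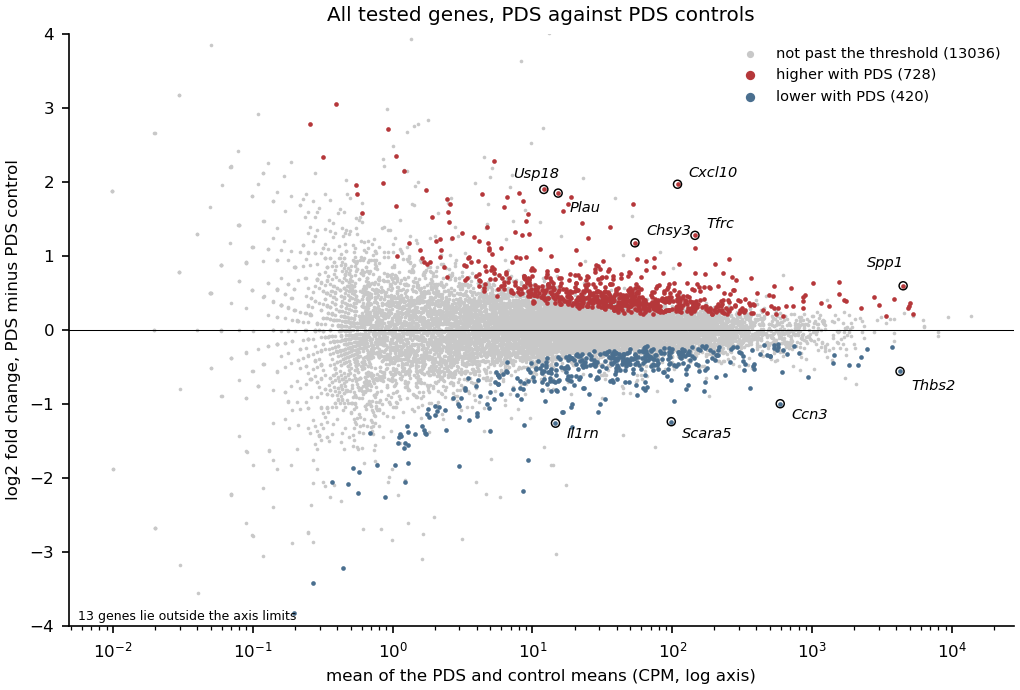
Log2 fold change (PDS minus PDS control) of the 14184 tested genes against their mean level in CPM, on a log axis. Red points are the 728 genes called higher, blue points the 420 called lower and grey points the rest, and the calls lie mostly within 1 log2 unit of 0. A few genes lie beyond the axis.

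Among called genes with a symbol, separated groups and a mean log2 CPM of at least 3, the 10 largest rises belonged to Cxcl10, Usp18, Plau, Ifit3, Oasl, Nos2, Ifit1, Evi2a, Ccl5 and Bmp2. Of these, Usp18, Ifit3, Oasl and Ifit1 belong to the interferon response, Cxcl10 and Ccl5 are chemokines, Plau and Nos2 are enzymes induced in inflammation, and Bmp2 is a bone morphogenetic protein. The 10 largest falls belonged to Tril, Il1rn, Scara5, C1qtnf7, Gas1, Lgr5, Fibin, Mgst1, Gsta1 and Ccn3. Bmp2 (ENSRNOG00000021276, chromosome 3, 126335863 to 126346318 as the deposited table gives it) had 34, 32.2 and 33.3 CPM in the PDS libraries, against 12.8, 11.7 and 12 CPM in the PDS controls, a 2.72-fold rise (1.44 ± 0.15, adjusted p = 7.4e-06 for the log2 fold change). Its 6 libraries formed 2 tight groups with no overlap. Ccn3 (ENSRNOG00000008697, chromosome 7, 94375020 to 94383024), a matricellular protein of the CCN family, had 385, 400.1 and 398 CPM in the PDS libraries, against 798, 768 and 798 CPM in the PDS controls, and was the most abundant of the 10 falling genes (-1.0 ± 0.07, adjusted p = 2.6e-08). Tril (ENSRNOG00000026941, chromosome 4, 83967696 to 83972540), an accessory protein of Toll-like receptor 4, had 10.4, 12.6 and 10.0 CPM with PDS, against 27.1, 31.5 and 23.4 CPM in the controls (-1.31 ± 0.13, adjusted p = 1.9e-06). Gas1, a cell-surface protein that binds Hedgehog ligands, had 19, 20.1 and 16.7 CPM with PDS, against 42, 38.4 and 40.1 CPM in the controls (-1.11 ± 0.19, adjusted p = 0.0012). C1qtnf7 and Fibin, both secreted proteins, fell by about as much as Gas1 (-1.12 ± 0.12 for C1qtnf7 and -1.04 ± 0.13 for Fibin). Evi2a, a membrane protein, had 13.8, 12.3 and 15.9 CPM with PDS, against 5.32, 4.12 and 4.67 CPM in the controls (1.57 ± 0.20, adjusted p = 2.8e-05). Gsta1, a glutathione transferase, had 12.6, 15.7 and 10.0 CPM with PDS, against 17.7, 31 and 28 CPM in the controls (-1.0 ± 0.24, adjusted p = 0.015), and its call was lost with PDS library 1 or 3 or PDS control 2 or 3 left out (adjusted p = 0.055 to 0.085). Among the most abundant called genes, the secreted phosphoprotein Spp1 averaged 5386 ± 339 CPM with PDS and 3566 ± 368 CPM in the controls (0.60 ± 0.13, adjusted p = 0.0061). Thbs2, the matrix protein thrombospondin 2, averaged 3437 ± 78.9 CPM with PDS and 5071 ± 260.2 CPM in the controls (-0.56 ± 0.07, adjusted p = 2.8e-05). The secreted protein Ccdc80 averaged 1779.7 ± 41.3 CPM with PDS and 2466 ± 88.7 CPM in the controls (-0.47 ± 0.07, adjusted p = 0.00030). The elongation factor Eef2 averaged 3392 ± 70.0 CPM with PDS and 4000.4 ± 211 CPM in the controls (-0.24 ± 0.07, adjusted p = 0.029), and its call was lost with PDS library 1, 2 or 3 or PDS control 1 or 2 left out (adjusted p = 0.057 to 0.15).

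**Figure D2:**
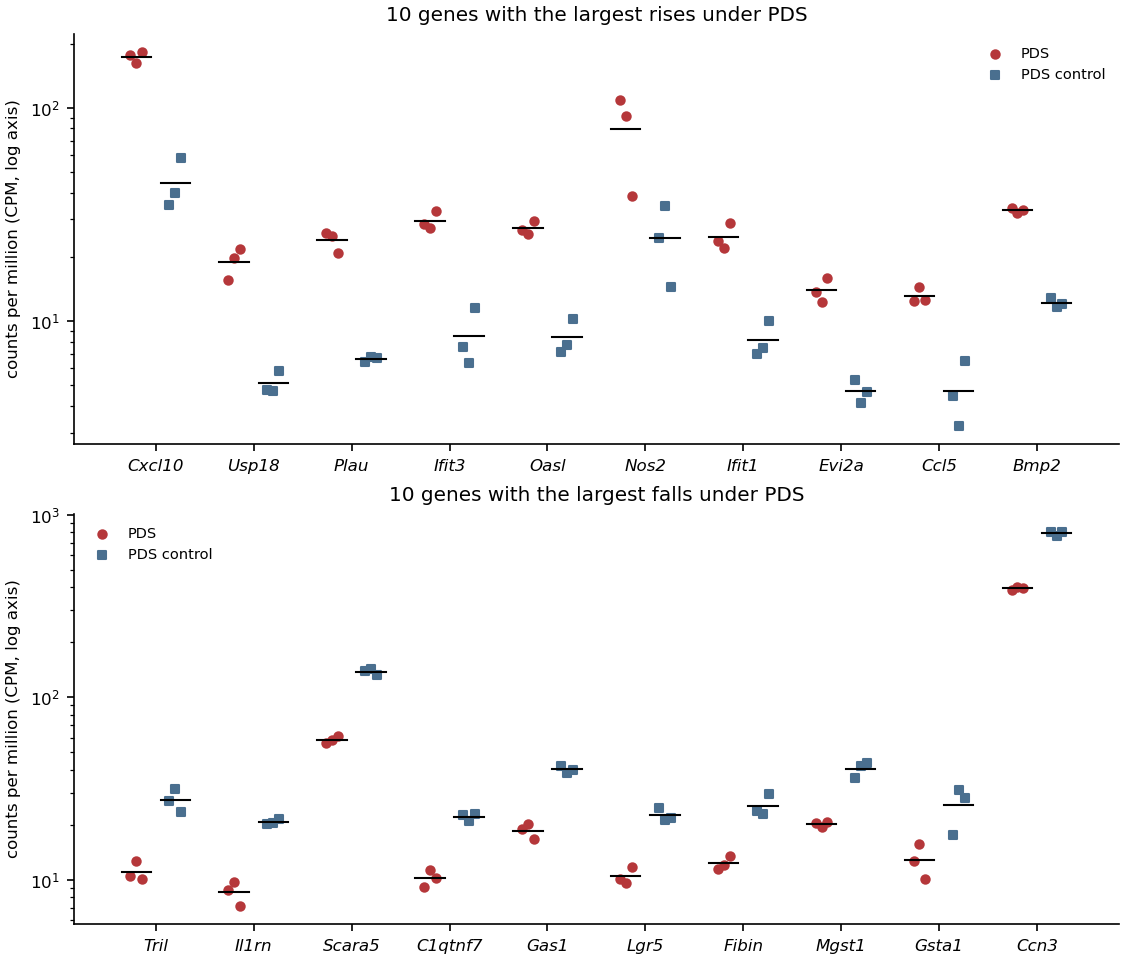
CPM per library, on log axes, of the 10 genes with the largest rises (top) and the 10 with the largest falls (bottom), with PDS in red circles left of the PDS controls in blue squares and the mean as a bar. In all 20 genes the 3 PDS libraries lie on 1 side of the 3 controls, and Nos2 shows the widest spread within groups.

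The interferon response is a defence programme. Sensors of foreign or misplaced nucleic acid lead to secretion of interferons. Their receptors switch on effector genes through STAT and IRF factors, at a promoter sequence called the interferon-stimulated response element (ISRE). Of 31 tested effector genes, out of 34 in the table, 13 were called higher with PDS and 0 lower, with a median log2 fold change of 0.54. Refits without 1 library called 9 to 11 effectors higher. Not all members pointed this way. Ifitm2 (-0.24 ± 0.07), Ifitm3 (-0.20 ± 0.07) and Ifi35 (-0.34 ± 0.11), among the members that did not pass, were called lower by DESeq2, and without PDS control 1 edgeR called 2 members lower. In 3 of the 31 members the PDS libraries all lay below the controls, and in 18 they all lay above. Over all tested genes these arrangements were found in 15.6% and 17.7%. The summed level of the list, which its most abundant members set, was 1409, 1406 and 1425 CPM in the PDS libraries, against 1297, 1413 and 1490.0 CPM in the PDS controls, and the groups overlapped. Rsad2, an antiviral enzyme also called viperin, had 8.30, 8.66 and 9.63 CPM in the PDS libraries, against 1.99, 1.83 and 1.62 CPM in the PDS controls (2.29 ± 0.35, adjusted p = 0.00041). Ifit3, a partner of the RNA-binding protein Ifit1, had 28.4, 27.3 and 32.7 CPM with PDS, against 7.56, 6.36 and 11.5 CPM in the controls (1.80 ± 0.27, adjusted p = 0.00064). The ubiquitin-like modifier Isg15 had 48.8, 51.4 and 54.7 CPM with PDS, against 14.9, 18.6 and 25.6 CPM in the controls (1.39 ± 0.20, adjusted p = 0.00028). For these 3 genes the lowest PDS library was above the highest control. Ifit1 rose by 1.61 ± 0.28, Oasl, a relative of the oligoadenylate synthetases, by 1.70 ± 0.19, the mitochondrial nucleotide kinase Cmpk2 by 1.30 ± 0.13, the GTPase Mx2 by 1.83 ± 0.34 and the ligase Herc6 by 0.97 ± 0.19. The remaining 5 calls were less stable. Parp14 (0.53) was lost with PDS library 3 or PDS control 3 left out (adjusted p = 0.066 to 0.075). Rtp4 (1.23) was lost with PDS library 1 or 2 or PDS control 1 or 3 left out (adjusted p = 0.051 to 0.11). Oas1a (2.71) was lost with PDS library 1, 2 or 3 or PDS control 1 or 3 left out (adjusted p = 0.064 to 0.13). Oasl2 (0.86) was lost with PDS library 1, 2 or 3 or PDS control 1 or 2 left out (adjusted p = 0.053 to 0.16). Isg20 (0.97) was lost with any 1 of the 6 libraries left out (adjusted p = 0.060 to 0.13). Gbp4 (1.71 ± 0.26), Gbp5 (1.24 ± 0.13) and Gbp2 (0.50 ± 0.08), interferon-induced GTPases that attack membranes of intracellular pathogens, were the 3 of 7 tested guanylate-binding and immunity-related GTPases that rose, and 0 fell.

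Promoters of interferon effectors are known to hold the ISRE. It was searched for as GAAA, any 2 bases and GAAA, on either strand, between 250 bases before and 50 bases after the start of each gene. In the RefSeq promoter table (build GRCr8), it was present in 15 of the 24 effector genes with a promoter there (62.5%), in 5 of the 7 GTPases (71.4%) and in 2.74% of the promoters of all tested genes, or 3.77% of all promoters in the table. Among all genes called higher it was present in 4.51%, and among those called lower in 2.68%. A stretch of 80 bases before the start is printed for 4 genes that rose, 5′ to 3′ on the strand of the gene, with the element in capitals. TTTC, 2 bases and TTTC is the element read from the other strand, and a promoter with several matches was counted once.
Cxcl10 (chr14:15988816-15988895, plus strand): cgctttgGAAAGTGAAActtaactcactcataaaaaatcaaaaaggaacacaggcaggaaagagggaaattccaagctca
Ifit3 (chr1:241527246-241527325, plus strand): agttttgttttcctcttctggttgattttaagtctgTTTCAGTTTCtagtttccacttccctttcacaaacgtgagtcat
Rsad2 (chr6:48788223-48788302, minus strand): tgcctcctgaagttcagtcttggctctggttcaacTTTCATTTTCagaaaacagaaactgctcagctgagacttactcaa
Gbp5 (chr2:233910908-233910987, plus strand): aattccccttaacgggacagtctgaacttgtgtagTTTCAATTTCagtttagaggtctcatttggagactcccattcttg
A match of letters describes the window and does not show that a factor binds there.

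Upstream of these effectors, transcripts of the classical interferons were not detected at this depth. Of 15 interferon ligand genes in the table, 14, including Ifnb1, Ifng and the alpha genes, had 0 counts in all 6 libraries. The 1 exception was Ifne, interferon epsilon, with 6, 11 and 6 counts in the PDS libraries, against 2, 3 and 3 counts in the PDS controls. It was too low to be tested. Of 18 receptors, kinases and transcription factors of the pathway, edgeR called 3 higher and 0 lower, and DESeq2 called 1 lower. Irf7, a factor that is itself induced by interferon, had 41.7, 47.5 and 51.2 CPM with PDS, against 24.1, 31.7 and 29.2 CPM in the controls (0.72 ± 0.10, adjusted p = 0.00010). Ifngr1, a chain of the interferon gamma receptor, had 127, 124 and 126 CPM with PDS, against 99.1, 99.9 and 100.4 CPM in the controls (0.33 ± 0.07, adjusted p = 0.0065). Irf9, a DNA-binding factor of the type I interferon response, changed by 0.45 ± 0.13, a call lost with PDS library 2 or 3 or PDS control 1 or 3 left out (adjusted p = 0.054 to 0.15). Usp18, which strips ISG15 from proteins and also dampens the type I receptor, had 15.5, 19.7 and 21.8 CPM in the PDS libraries, against 4.78, 4.71 and 5.81 CPM in the PDS controls (1.90 ± 0.18, adjusted p = 1.8e-06). Of 13 sensors and adaptors of nucleic acid sensing, the RNA sensor Dhx58 (0.70) and the RNA editor Adar (0.31) were called higher and the DNA-sensing adaptor Sting1 lower (-0.57). None of the 3 calls was stable. Dhx58 was lost with PDS library 1, 2 or 3 or PDS control 1 or 3 left out (adjusted p = 0.054 to 0.13), Adar with PDS library 2 or 3 or PDS control 1, 2 or 3 left out (adjusted p = 0.091 to 0.22), and Sting1 with PDS library 2 or 3 or PDS control 1, 2 or 3 left out (adjusted p = 0.051 to 0.22). Of 23 genes of MHC class I and antigen processing, 2 were called higher and 0 lower (8.7%, against 8.09% of all tested genes called in either direction). B2m, the light chain of MHC class I (0.33), was lost with PDS library 3 or PDS control 2 left out (adjusted p = 0.10 to 0.11). RT1-CE10 (1.26) was lost with PDS library 2 or 3 or PDS control 2 or 3 left out (adjusted p = 0.068 to 0.15). RT1 genes are near-identical copies, so reads may have been split between them.

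Chemokines recruit leukocytes, and 9 of 16 tested members rose while 1 fell. The interferon-induced ligands of the receptor CXCR3 were among the largest changes. Cxcl10 had 177, 162 and 182 CPM in the PDS libraries, against 35.1, 39.6 and 58.3 CPM in the PDS controls, and Cxcl11 had 10.7, 12.4 and 16.2 CPM with PDS, against 2.60, 3.83 and 5.39 CPM in the controls (1.73 ± 0.21, adjusted p = 2.1e-05). In both genes PDS control 3 was the highest control, and it stayed below every PDS library. The membrane-bound chemokine Cxcl16 had 337, 326 and 326 CPM in the PDS libraries, against 194, 209 and 200.3 CPM in the PDS controls (0.71 ± 0.08, adjusted p = 7.4e-06). The monocyte chemokines Ccl2 and Ccl7 rose by 0.65 ± 0.09 and 0.44 ± 0.09, the T-cell chemokine Ccl5 by 1.47 ± 0.24, the fractalkine gene Cx3cl1 by 0.53 ± 0.08 and the neutrophil chemokine Cxcl2 by 0.47 ± 0.09. Ccl4 had 2.67, 1.74 and 0.881 CPM with PDS, against 0.423, 0.0589 and 0.539 CPM in the controls, and its call (2.35 ± 0.62, adjusted p = 0.022) was lost with PDS library 1 or 2 or PDS control 1 or 2 left out (adjusted p = 0.053 to 0.11). Cxcl12, a homeostatic chemokine of stromal cells, moved the other way and had 702, 748 and 731 CPM in the PDS libraries, against 1135, 1106 and 1160.1 CPM in the PDS controls (-0.64 ± 0.07, adjusted p = 1.3e-05). Its groups were far apart relative to the spread within each.

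Cytokines of the interleukin-6 family share the receptor chain gp130, and 3 of their ligands rose while none of their tested receptors did. Il11 had 94.8, 77.7 and 83.5 CPM with PDS, against 44.4, 42.3 and 48.1 CPM in the controls (0.93 ± 0.11, adjusted p = 1.2e-05). Lif, leukemia inhibitory factor, had 38.8, 38.8 and 32.5 CPM with PDS, against 22.1, 18.5 and 19.3 CPM in the controls (0.88 ± 0.12, adjusted p = 0.00012). Il6 had 7.71, 8.41 and 8.28 CPM with PDS, against 3.81, 2.83 and 4.67 CPM in the controls (1.11 ± 0.22, adjusted p = 0.0024). These were the 3 rises among 12 tested ligands and receptors. The receptor Il11ra1 was the 1 member called lower (-0.44 ± 0.11), a call lost with PDS library 3 or PDS control 2 left out (adjusted p = 0.064 to 0.084). In the interleukin-1 family, Il1rn, the antagonist that blocks the interleukin-1 receptor, had 8.83, 9.74 and 7.22 CPM with PDS, against 20.1, 20.3 and 21.4 CPM in the controls (-1.26 ± 0.16, adjusted p = 2.8e-05). Il1rl1, the receptor for interleukin-33, had 99, 89.3 and 97.8 CPM with PDS, against 60.4, 44.3 and 54.9 CPM in the controls (0.84 ± 0.13, adjusted p = 0.00051). Irak2, a kinase of the pathway, was called higher (0.31), a call lost with any 1 of the 6 libraries left out (adjusted p = 0.050 to 0.14). Of 21 subunits and feedback inhibitors of NF-kB, Tnfaip3, the ubiquitin editor A20 that limits NF-kB signalling, rose (0.81 ± 0.13, adjusted p = 0.00049), and Bcl3, a nuclear cofactor of NF-kB subunits, fell (-0.67 ± 0.11, adjusted p = 0.00066). Birc3 was also called higher (0.40), a call lost with PDS library 1, 2 or 3 or PDS control 2 or 3 left out (adjusted p = 0.063 to 0.21). The calls made up 14.3% of this NF-kB list, against 8.09% of all tested genes.

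Among enzymes of prostaglandin and nitric oxide synthesis, 5 of 17 tested genes were called higher and 2 lower. Ptgs2, the inducible cyclooxygenase COX-2, had 333, 316 and 359 CPM in the PDS libraries, against 197, 146 and 177 CPM in the PDS controls (0.95 ± 0.18, adjusted p = 0.0049). Ptges, the prostaglandin E synthase that works with it, had 595, 584 and 542 CPM with PDS, against 373, 463 and 407 CPM in the controls (0.47 ± 0.08, adjusted p = 0.00055). Hpgd, which inactivates prostaglandins, had 8.06, 7.27 and 9.93 CPM with PDS, against 16.3, 12.2 and 20.5 CPM in the controls (-0.96 ± 0.21, adjusted p = 0.0088), a call lost with PDS library 2 or PDS control 3 left out (adjusted p = 0.052 to 0.055). Nos2, the inducible nitric oxide synthase, had 108, 91.9 and 38.7 CPM in the PDS libraries, against 24.5, 34.5 and 14.5 CPM in the PDS controls. Its highest control was close to its lowest PDS library, and its call (1.70 ± 0.46, adjusted p = 0.041) was lost with PDS library 1 or 2 or PDS control 1, 2 or 3 left out (adjusted p = 0.057 to 0.14). Ass1, which makes the precursor of arginine, and Arg1, which breaks arginine down, both rose (0.98 ± 0.21 and 0.53 ± 0.09). Arg2, the mitochondrial arginase, was lower (-0.92 ± 0.21), a call lost with PDS library 1 left out (adjusted p = 0.050).

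The plasminogen system controls proteolysis of fibrin and matrix at the cell surface, and both of its activators rose. Of 10 tested members 5 were called higher and 0 lower. Plau, the urokinase activator, had 25.8, 25 and 20.9 CPM in the PDS libraries, against 6.41, 6.77 and 6.71 CPM in the PDS controls (1.85 ± 0.14, adjusted p = 6.7e-08). Plat, the tissue activator, had 156, 174 and 173 CPM with PDS, against 116, 102 and 129.6 CPM in the controls (0.54 ± 0.09, adjusted p = 0.00095). The inhibitor Serpine2 rose by 0.32 ± 0.06. Anxa2, a plasminogen receptor, changed by 0.19 ± 0.06, a call lost with any 1 of the 6 libraries left out (adjusted p = 0.055 to 0.17). The urokinase receptor Plaur had 23.4, 20.4 and 19.6 CPM with PDS, against 18, 17.6 and 15.5 CPM in the controls and did not pass the threshold (0.31 ± 0.15, adjusted p = 0.22). F3, tissue factor, which starts coagulation, averaged 131 ± 9.07 CPM with PDS and 214 ± 18.9 CPM in the controls (-0.71 ± 0.10, adjusted p = 0.00019).

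In the matrix, some minor collagens fell, and enzymes that build glycosaminoglycan chains changed in both directions. Of 18 tested non-fibrillar collagens, 4 fell and 0 rose, with a median log2 fold change of -0.25, and the same 4 genes fell in each refit without 1 library. Col14a1, a collagen bound to the surface of fibrils, had 249, 276 and 275 CPM in the PDS libraries, against 482, 497 and 395 CPM in the PDS controls (-0.78 ± 0.10, adjusted p = 2.6e-05). The network-forming Col8a1 and Col8a2 fell (-0.33 ± 0.07 and -0.49 ± 0.11), as did Col4a5, of basement membranes (-0.38 ± 0.07). Of 22 fibrillar collagens and processing genes, 2 were called higher and 4 lower. Col2a1 fell (-0.82 ± 0.16, adjusted p = 0.0021), as did Pcolce, which speeds cleavage of procollagen (-0.31 ± 0.06), whereas its paralog PCOLCE2 and the prolyl hydroxylase P4ha2 rose (0.81 ± 0.14 and 0.39 ± 0.07). Col11a1 (-0.34) was lost with PDS library 1 or 2 or PDS control 1 left out (adjusted p = 0.061 to 0.094). The collagen chaperone Serpinh1 (-0.45) was lost with PDS library 1, 2 or 3 or PDS control 2 or 3 left out (adjusted p = 0.065 to 0.11). This left 2 lower calls without PDS library 1 or 2. Sox9, the transcription factor that drives cartilage genes, had 9.19, 7.75 and 9.28 CPM with PDS, against 6.11, 8.01 and 6.05 CPM in the controls (0.38 ± 0.14, adjusted p = 0.12). The crosslinking enzyme Loxl2 had 212, 226 and 211 CPM in the PDS libraries, against 133, 130.0 and 124 CPM in the PDS controls (0.75 ± 0.07, adjusted p = 1.2e-06).

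Chondroitin sulfate chains give disc proteoglycans their charge. Chsy3 (ENSRNOG00000050152, chromosome 18, 54243949 to 54496585), a chondroitin synthase, had 73.1, 72.2 and 79.3 CPM in the PDS libraries, against 33.1, 31.7 and 34.7 CPM in the PDS controls (1.18 ± 0.09, adjusted p = 1.0e-07), with no overlap between the groups. Its relative Chsy1 rose by 0.53 ± 0.08 and the sulfotransferase Chst11 by 0.49 ± 0.09. Csgalnact1, which starts the chains, fell (-0.55 ± 0.10). Cemip, which takes part in breaking down hyaluronan, had 50.1, 49 and 47.2 CPM with PDS, against 75.1, 93.5 and 69.1 CPM in the controls (-0.70 ± 0.09, adjusted p = 4.2e-05). Has2, a hyaluronan synthase, was higher (0.76 ± 0.17), a call lost with PDS library 3 or PDS control 3 left out (adjusted p = 0.055). Extl3 (0.27) was lost with PDS library 1, 2 or 3 or PDS control 1 or 3 left out (adjusted p = 0.071 to 0.17). In all, 5 of 36 tested enzymes of these chains were called higher and 2 lower, and 3 were called higher without PDS library 3 or PDS control 3. Cd44, the hyaluronan receptor, had 844, 834 and 856 CPM in the PDS libraries, against 577, 554 and 575 CPM in the PDS controls (0.57 ± 0.06, adjusted p = 7.0e-06). Among 27 proteoglycan core proteins the other calls were Vcan, versican (0.63), lost with any 1 of the 6 libraries left out (adjusted p = 0.051 to 0.17), and Fmod. Fmod, fibromodulin (-0.38), was lost with PDS library 1, 2 or 3 or PDS control 1 or 2 left out (adjusted p = 0.063 to 0.30). The calls made up 11.1% of these core proteins, against 8.09% of all tested genes.

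Of 27 integrins and adhesion receptors, 7 were called higher and 2 lower. Itga5 and Itgb1, which together form the main fibronectin receptor, both rose. Itga5 averaged 319 ± 2.37 CPM with PDS and 220.5 ± 19.8 CPM in the controls (0.53 ± 0.07, adjusted p = 6.2e-05). Itgb1 averaged 1924 ± 73.1 CPM with PDS and 1459.5 ± 96.4 CPM in the controls (0.40 ± 0.07, adjusted p = 0.0018). The collagen-binding Itga2 was low but separated, with 2.49, 1.86 and 1.53 CPM with PDS, against 0.605, 0.530 and 0.180 CPM in the controls (2.14 ± 0.37, adjusted p = 0.00087). Itga8 rose by 0.62 ± 0.13. The collagen receptors Itga11 and Ddr1 fell (-0.52 ± 0.08 and -0.38 ± 0.09). The calls of Itgb3 (1.67), Cdh2 (0.40) and Ncam1 (0.41) were less stable. Itgb3 was lost with PDS library 2 left out (adjusted p = 0.054), and Cdh2 with PDS library 2 or 3 or PDS control 2 or 3 left out (adjusted p = 0.055 to 0.096). Ncam1 was lost with PDS library 2 or 3 or PDS control 2 or 3 left out (adjusted p = 0.070 to 0.15). Without PDS library 2, 4 members were called higher. Matricellular proteins, which modulate cell behaviour without being structural, divided, with 5 of 22 called higher and 3 lower. Smoc2 had 62, 63.2 and 60.1 CPM with PDS, against 34.8, 36.6 and 35.9 CPM in the controls (0.79 ± 0.09, adjusted p = 1.7e-05). Ccn2, a relative of Ccn3, had 1124, 997 and 976 CPM with PDS, against 766, 733 and 726 CPM in the controls (0.48 ± 0.08, adjusted p = 0.00097). Tnn, tenascin N, averaged 1534 ± 49.7 CPM with PDS and 2134 ± 167 CPM in the controls (-0.48 ± 0.08, adjusted p = 0.00066). Postn (0.43) was lost with PDS library 1 or 3 or PDS control 2 or 3 left out (adjusted p = 0.069 to 0.17). Tnc (0.32) was lost with PDS library 1, 2 or 3 or PDS control 1 or 3 left out (adjusted p = 0.051 to 0.17). This left 3 members higher without PDS library 1 or 3 or PDS control 3.

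Matrix-degrading proteases changed in both directions. Adamts5 and Adamts1, enzymes that cut aggrecan, fell. Adamts5 had 45.9, 51 and 49.1 CPM in the PDS libraries, against 85.9, 84 and 79.7 CPM in the PDS controls (-0.77 ± 0.09, adjusted p = 1.6e-05). Adamts1 had 147, 141 and 147 CPM with PDS, against 211, 214 and 196 CPM in the controls (-0.52 ± 0.06, adjusted p = 2.1e-05). Adamts4, another aggrecan-cutting enzyme, had 4.80, 5.83 and 6.93 CPM with PDS, against 5.56, 6.19 and 7.13 CPM in the controls and did not pass the threshold (-0.10 ± 0.20, adjusted p = 0.80). Adamts8 and Adamts7 rose by 0.99 ± 0.15 and 0.59 ± 0.11, and the membrane protease Adam12 by 0.39 ± 0.08. Adamts15 (-1.04) and Adam17 (0.28) complete the 4 higher and 3 lower calls among 22 members. Adamts15 was lost with PDS library 1 or 2 or PDS control 1, 2 or 3 left out (adjusted p = 0.051 to 0.12). Adam17 was lost with PDS library 1, 2 or 3 or PDS control 2 or 3 left out (adjusted p = 0.065 to 0.18). Of 18 matrix metalloproteases and their TIMP inhibitors, 1 passed (5.56%, against 8.09% of all tested genes). Mmp3, stromelysin, had 3428, 3319 and 3303 CPM with PDS, against 2554, 2696 and 2702 CPM in the controls (0.34 ± 0.08, adjusted p = 0.012), a call lost with PDS library 1 or PDS control 1 left out (adjusted p = 0.050 to 0.054). The collagenase Mmp13 had 743, 743 and 848 CPM with PDS, against 477, 422 and 495 CPM in the controls, without overlap, but did not pass the threshold (0.74 ± 0.22, adjusted p = 0.057).

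Ligands and feedback genes of the TGF-beta family changed in both directions. Pmepa1 (ENSRNOG00000050404, chromosome 3, 171294856 to 171342646), a feedback inhibitor that TGF-beta signalling itself induces, had 196, 190.0 and 205 CPM in the PDS libraries, against 97, 92 and 86 CPM in the PDS controls (1.10 ± 0.08, adjusted p = 7.1e-08). Inhba, the subunit of activin A, rose (0.83 ± 0.17, adjusted p = 0.0056), and the activin antagonist Fst, follistatin, fell (-0.36 ± 0.07, adjusted p = 0.0026). Tgfb3 had 146, 137 and 136 CPM with PDS, against 207, 207 and 196 CPM in the controls (-0.54 ± 0.09, adjusted p = 0.00049). Tgfb1 was called higher (0.27 ± 0.07), a call lost with PDS library 1 or 2 or PDS control 3 left out (adjusted p = 0.077 to 0.10). Of 30 tested genes of this group 7 were called higher and 2 lower. Tgif1 (0.34) was lost with PDS library 1 left out (adjusted p = 0.064). Fstl3 (0.41) was lost with PDS control 3 left out (adjusted p = 0.057). Smurf2 (0.33) was lost with PDS library 1, 2 or 3 or PDS control 2 or 3 left out (adjusted p = 0.078 to 0.17). Skil (0.44) was lost with PDS library 1 or 3 or PDS control 2 or 3 left out (adjusted p = 0.10 to 0.21). In this group 3 genes were called higher without PDS library 1 or PDS control 3. Among 25 bone morphogenetic proteins, growth differentiation factors and antagonists, 4 rose in all refits, Bmp2 among them. Gdf6, a ligand active in joint formation, had 10.9, 8.72 and 10.6 CPM with PDS, against 6.35, 5.13 and 3.83 CPM in the controls (0.98 ± 0.18, adjusted p = 0.0014). Gdf15, a stress cytokine, had 19.6, 17.3 and 17.3 CPM with PDS, against 8.52, 8.66 and 9.94 CPM in the controls (0.99 ± 0.21, adjusted p = 0.0064). Grem1, an antagonist of BMPs, averaged 3171 ± 168 CPM with PDS and 2327 ± 194 CPM in the controls (0.45 ± 0.10, adjusted p = 0.0063). A further 2 were called higher and 2 lower. Of these, Id2 (0.33) was lost with PDS library 1 or 2 or PDS control 1 or 2 left out (adjusted p = 0.075 to 0.16). Bmp6 (-0.38) was lost with PDS library 1 or 3 or PDS control 2 left out (adjusted p = 0.053 to 0.073). Gdf11 (-0.36) was lost with PDS library 1, 2 or 3 or PDS control 1 or 3 left out (adjusted p = 0.085 to 0.15).

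In Wnt signalling, R-spondins bind LGR receptors and raise the number of Wnt receptors at the surface. The ligand Rspo1 had 41.6, 39 and 38.2 CPM with PDS, against 73.2, 70.2 and 74.4 CPM in the controls (-0.87 ± 0.12, adjusted p = 0.00013). The receptor Lgr5 had 10.1, 9.56 and 11.7 CPM with PDS, against 24.7, 21.2 and 21.9 CPM in the controls (-1.11 ± 0.14, adjusted p = 3.5e-05). Both fell, and Sfrp4, a secreted Wnt modulator, rose (0.42 ± 0.09, adjusted p = 0.0054). Of 30 tested Wnt genes 2 were called higher and 4 lower. The lower count was 2 without PDS library 1 or 3 or PDS control 1 or 2. The others were Wnt5b (0.87), lost with PDS library 1 or 3 or PDS control 1 or 2 left out (adjusted p = 0.059 to 0.11), the pathway target Axin2 and the receptor Fzd2. Axin2 (-0.62) was lost with PDS library 1 or 3 or PDS control 1 or 2 left out (adjusted p = 0.056 to 0.094), and Fzd2 (-0.39) with any 1 of the 6 libraries left out (adjusted p = 0.053 to 0.19). Of 18 tested genes of the insulin-like growth factor system, 0 were called with edgeR. Unadjusted p was under 0.05 for 1 higher and 3 lower genes there, and DESeq2 called 0 higher and 1 lower.

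Growth factor signalling through ERK kinases induces its own inhibitors. Of 21 feedback genes of the MAP kinases, the wider family that holds ERK, 8 were called higher and 0 lower, with a median of 0.27. Phlda1 had 99.6, 95.1 and 100.3 CPM in the PDS libraries, against 51.7, 48.6 and 49.9 CPM in the PDS controls (0.97 ± 0.10, adjusted p = 2.7e-06). Dusp6, a phosphatase that switches off ERK, had 39.1, 43.9 and 36.3 CPM with PDS, against 27.2, 25.7 and 27.1 CPM in the controls (0.58 ± 0.09, adjusted p = 0.00037). Dusp7, Dusp5, Spred2 and Spry2 rose by 0.51 ± 0.08, 0.55 ± 0.13, 0.60 ± 0.12 and 0.41 ± 0.09. Dusp10 (0.55) was lost with PDS library 2 or PDS control 3 left out (adjusted p = 0.056 to 0.060). Dusp8 (0.62) was lost with any 1 of the 6 libraries left out (adjusted p = 0.071 to 0.15). The AP-1 subunit Jun had 78.1, 71.6 and 71.8 CPM in the PDS libraries, against 39.1, 40.2 and 34.7 CPM in the PDS controls (0.96 ± 0.10, adjusted p = 5.5e-06). The subunit Fosl1 had 61.5, 56.9 and 58.7 CPM with PDS, against 40.6, 41.3 and 38.2 CPM in the controls (0.56 ± 0.07, adjusted p = 5.4e-05). The early genes Btg2 and Ier3 rose by 0.60 ± 0.08 and 0.46 ± 0.08. Of 20 genes of the mechanical response, a list that holds TEAD factors and cofactors as well as targets of YAP, 0 were called higher and 8 lower, with a median of -0.21. Ankrd1, a standard YAP target, had 10.0, 9.20 and 9.57 CPM with PDS, against 14.7, 15.9 and 17.4 CPM in the controls (-0.74 ± 0.14, adjusted p = 0.0017). The TEAD cofactor Vgll3 (-0.48 ± 0.08), the kinase Nuak2 (-0.49 ± 0.09) and F3 also fell. Tead2 (-0.40), Tead4 (-0.64), Ajuba (-0.37) and Dlc1 (-0.30) complete the 8. Tead2 was lost with PDS library 1, 2 or 3 or PDS control 2 left out (adjusted p = 0.052 to 0.11). Tead4 was lost with PDS library 1 or 2 or PDS control 2 or 3 left out (adjusted p = 0.072 to 0.18), and Ajuba with PDS library 1, 2 or 3 or PDS control 1 or 3 left out (adjusted p = 0.055 to 0.076). Dlc1 was lost with PDS library 1, 2 or 3 or PDS control 1 or 2 left out (adjusted p = 0.094 to 0.16). In all, 4 members were called lower without PDS library 1 or 2, and 5 without PDS library 3 or PDS control 2. Ccn2, also a known YAP target, was not in this list and rose.

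**Figure D3:**
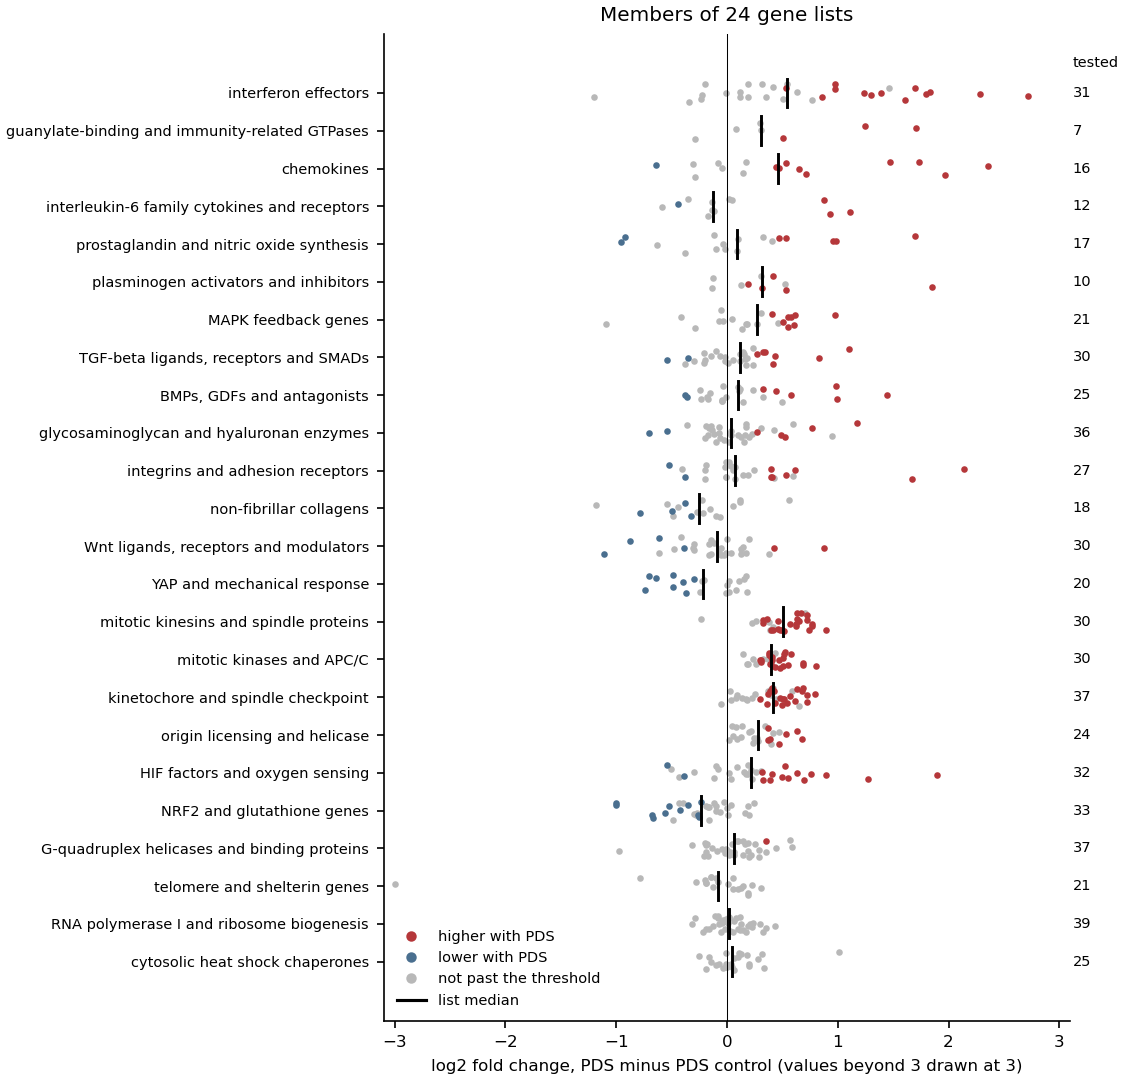
Log2 fold changes (PDS minus PDS control) of the tested members of 24 gene lists, 1 point per gene, coloured by call, with the list median as a bar and the number tested at the right. Mitotic lists lie almost wholly to the right of 0, NRF2 and YAP lists have calls on the left only, and the lists of telomere genes, RNA polymerase I genes and heat shock chaperones have no calls.

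Genes of mitosis rose together and by modest amounts. Of 30 tested mitotic kinesins and spindle proteins 23 were called higher and 0 lower, with a median log2 fold change of 0.50. Of 30 mitotic kinases and genes of the anaphase-promoting complex the counts were 22 and 0 (median 0.40), and of 37 kinetochore and checkpoint genes 20 and 0 (median 0.42). Ckap2 (ENSRNOG00000024650, chromosome 16, 74752655 to 74779184), a spindle protein, had 252, 265 and 269 CPM in the PDS libraries, against 152, 124 and 147 CPM in the PDS controls (0.90 ± 0.09, adjusted p = 1.7e-06). The cytokinesis gene Anln had 177, 178 and 190.5 CPM with PDS, against 123, 97.5 and 100.1 CPM in the controls (0.77 ± 0.10, adjusted p = 5.3e-05). Kif23, a motor of the midbody, had 71.9, 73 and 77.1 CPM with PDS, against 50.2, 36.9 and 47.8 CPM in the controls (0.72 ± 0.11, adjusted p = 0.00037). In all 3 genes PDS control 2 was the lowest control. The spindle assembly factor Tpx2 rose by 0.63 ± 0.08, and Ube2c, which marks mitotic proteins for destruction, by 0.56 ± 0.07. Among kinases, cyclins and checkpoint genes, Ccnb1 rose by 0.50 ± 0.07, Cdk1 by 0.39 ± 0.07, Plk1 by 0.38 ± 0.07, Ska2 by 0.62 ± 0.10 and Bub1b by 0.43 ± 0.08. Mki67, a marker of cycling cells, had 38.9, 41.4 and 52.7 CPM with PDS, against 29.5, 19.6 and 27.3 CPM in the controls (0.80 ± 0.18, adjusted p = 0.011), a call lost with PDS library 3 left out (adjusted p = 0.059). Hmmr had 54.8, 56.8 and 68.1 CPM with PDS, against 39.2, 28.7 and 41 CPM in the controls (0.72 ± 0.19, adjusted p = 0.026), a call lost with PDS library 2 or 3 or PDS control 1 or 2 left out (adjusted p = 0.050 to 0.12). The extent of the change leaned on single libraries. Kinetochore genes called higher numbered 10 without PDS library 3, 9 without PDS control 2 and 13 without PDS library 2 or PDS control 1, while mitotic kinesins stayed at 17 to 20 and mitotic kinases at 15 to 19. Without PDS control 3, 1 gene of the kinesin list was called lower. Genes of earlier steps of the cycle were also called. Of 24 tested genes that license replication origins 7 were called higher, but 0 without PDS control 2, 1 without PDS library 3, 2 without PDS library 2, 3 without PDS control 1 or 3 and 4 without PDS library 1. Of 22 cyclins, CDKs and E2F factors of G1 and S phase, 3 rose and 0 fell (13.6%, against 8.09% of all tested genes called in either direction). Ccnd1, cyclin D1, had 1247, 1233 and 1199 CPM with PDS, against 782, 815 and 778 CPM in the controls (0.63 ± 0.07, adjusted p = 5.5e-06). Ccna2, cyclin A2, rose by 0.45 ± 0.07 and Cks2 by 0.51 ± 0.10.

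Many mitotic promoters hold the cell cycle genes homology region (CHR), through which they are repressed in resting cells. Searched for as TTTGAA on either strand, it was present in 20 of 26 promoters of mitotic kinesins and spindle proteins (76.9%), 13 of 23 of mitotic kinases (56.5%) and 15 of 32 of kinetochore genes (46.9%). Among all tested genes it was present in 11.5%, or 18.1% of all promoters in the table. It was present in 20.9% of the genes called higher and 9.73% of those called lower. The element stands in capitals in 80 bases before the start of 4 genes of these lists, printed as above, and TTCAAA is the element read from the other strand.
Ckap2 (chr16:76541951-76542030, plus strand): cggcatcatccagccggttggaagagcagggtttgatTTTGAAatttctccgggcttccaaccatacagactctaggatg
Hmmr (chr10:25665219-25665298, minus strand): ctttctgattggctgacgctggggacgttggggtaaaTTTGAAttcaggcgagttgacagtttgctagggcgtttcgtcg
Kif23 (chr8:71320621-71320700, minus strand): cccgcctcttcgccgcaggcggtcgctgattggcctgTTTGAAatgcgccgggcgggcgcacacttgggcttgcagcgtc
Mki67 (chr1:199952650-199952729, minus strand): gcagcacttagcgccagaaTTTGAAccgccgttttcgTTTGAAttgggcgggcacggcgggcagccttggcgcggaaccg
The window of Mki67 holds the element at 2 places. A list and its promoters share the genes that were chosen for the list, so these shares describe the lists and were not tested.

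Targets of p53, which responds to DNA damage, divided into 8 called higher and 2 lower of 31 tested. Mdm2, the ligase that keeps p53 low, had 217, 221 and 226 CPM with PDS, against 151, 141 and 151 CPM in the controls (0.58 ± 0.08, adjusted p = 0.00012). The CDK inhibitor Cdkn1a, or p21, had 405, 409 and 393 CPM with PDS, against 310.0, 319 and 328 CPM in the controls (0.34 ± 0.07, adjusted p = 0.0054). Plk3 rose by 0.63 ± 0.13, and Btg2 and Ckap2, given above, are also in this list. Of the other 3 higher calls, Ccng1 (0.35) was lost with any 1 of the 6 libraries left out (adjusted p = 0.059 to 0.21). Aen (0.26) was lost with any 1 of the 6 libraries left out (adjusted p = 0.053 to 0.073). Pmaip1 (0.34) was lost with PDS library 1, 2 or 3 or PDS control 2 left out (adjusted p = 0.053 to 0.14). Refits of the list called 5 genes higher without PDS library 1, 2 or 3 or PDS control 2, and 0 lower without PDS library 1 or 3 or PDS control 2. Of 43 genes of the damage checkpoint and the Fanconi pathway 5 were called higher and 0 lower. This is 11.6% of the list, against 8.09% of all tested genes called in either direction. Fanci, a gene of the Fanconi pathway, rose by 0.46 ± 0.09. Brca1 (0.61), a recombination gene, was lost with PDS library 2 or 3 or PDS control 2 left out (adjusted p = 0.056 to 0.086). Refits of the list called 1 gene higher without PDS library 3, 3 without PDS library 2 or PDS control 2 or 3, and 6 without PDS control 1. Ercc1, a subunit of a repair nuclease, had 171, 162 and 157 CPM with PDS, against 108, 115 and 112 CPM in the controls (0.55 ± 0.08, adjusted p = 0.00019).

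Hypoxia-inducible factors (HIF) are degraded after hydroxylation by the EGLN enzymes, which are themselves HIF targets. Of 32 tested genes of this system 13 were called higher and 2 lower, and the refits gave 12 or 13. Egln3 had 146, 147 and 145 CPM in the PDS libraries, against 78.8, 80.5 and 76.5 CPM in the PDS controls (0.89 ± 0.09, adjusted p = 1.9e-06). Egln1 had 128, 125 and 121 CPM with PDS, against 79.6, 83.2 and 78.9 CPM in the controls (0.63 ± 0.08, adjusted p = 1.8e-05). Epas1, the HIF-2 alpha subunit, had 51.7, 54.4 and 56 CPM with PDS, against 33.7, 31.9 and 30.1 CPM in the controls (0.76 ± 0.10, adjusted p = 3.2e-05). The mitophagy receptor Bnip3 had 447, 442 and 459 CPM with PDS, against 287, 252 and 294 CPM in the controls (0.69 ± 0.08, adjusted p = 1.2e-05). The growth factor Vegfa had 71.2, 71.9 and 70.2 CPM with PDS, against 49.5, 46.1 and 49.8 CPM in the controls (0.55 ± 0.09, adjusted p = 0.00052). Ca9, a carbonic anhydrase, rose by 0.39 ± 0.08. Ca12, another carbonic anhydrase and a marker of nucleus pulposus cells, had 4.21, 2.64 and 1.41 CPM with PDS, against 0.665, 0.884 and 0.659 CPM in the controls (1.89 ± 0.43, adjusted p = 0.0083), a call lost with PDS library 1 left out (adjusted p = 0.067). Bhlhe40, Ero1a, Ak4, Ndrg1 and Pfkfb3 rose by 0.50, 0.41, 0.52, 0.32 and 0.32. Angptl4 and Arnt2 fell (-0.54 ± 0.07 and -0.39 ± 0.07). Hif1a had 208, 209.8 and 251 CPM with PDS, against 219.9, 163 and 212 CPM in the controls, and its groups overlapped (0.17 ± 0.15, adjusted p = 0.52). Of 29 genes of glycolysis and lactate transport 10 were called higher and 2 lower, with Pdk1, which keeps pyruvate out of mitochondria, at 0.57 ± 0.07, the glucose transporter Slc2a1 at 0.37 ± 0.07, Gpi at 0.37 ± 0.07, and the abundant Ldha and Eno1 at 0.36 ± 0.06 and 0.29 ± 0.06. In glycogen metabolism Gbe1 rose by 0.47 and Gys1 by 0.33. Of the 2 lower calls, Pfkm (-0.34) was lost with PDS library 3 or PDS control 2 left out (adjusted p = 0.053 to 0.055). Mpc2 (-0.45) was lost with PDS library 2 or 3 or PDS control 1, 2 or 3 left out (adjusted p = 0.062 to 0.17). The core of the HIF-binding site, ACGTG on either strand, stood in 14 of 26 promoters of the HIF list (53.8%) and 13 of 27 of the glycolysis list (48.1%), against 25.6% of all tested genes. Among genes called higher it stood in 26.1%. Genes of RNA polymerase I and ribosome biogenesis, a list with 0 calls, held it in 20 of 36 promoters (55.6%). ACGTG is also part of CACGTG, the site of MYC-type factors.

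Tfrc (ENSRNOG00000001766, chromosome 11, 71397383 to 71419223), the transferrin receptor that imports iron, had 198, 197 and 223 CPM in the PDS libraries, against 90.3, 74.5 and 89.9 CPM in the PDS controls (1.28 ± 0.10, adjusted p = 1.2e-07). Scara5 (ENSRNOG00000014398, chromosome 15, 49069145 to 49177166), a receptor for ferritin, had 56.1, 58.2 and 61 CPM in the PDS libraries, against 139.8, 142 and 133 CPM in the PDS controls (-1.24 ± 0.08, adjusted p = 4.7e-09). The 2 uptake receptors thus changed in opposite directions, each without overlap between the groups. Of 20 tested genes of iron handling, Tfrc was the 1 called higher and 3 were called lower. Hmox1, which frees iron from heme, had 274, 287 and 263 CPM with PDS, against 371, 383 and 353 CPM in the controls (-0.43 ± 0.07, adjusted p = 0.00066). The metalloreductase Steap4 (-0.55) was lost with any 1 of the 6 libraries left out (adjusted p = 0.052 to 0.18).

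Hmox1 is also a target of NRF2, the factor that answers oxidative stress, and 11 of 33 tested NRF2 and glutathione genes were called lower and 0 higher, with a median of -0.24. Nqo1, a quinone reductase, had 134, 125 and 119 CPM in the PDS libraries, against 185, 183 and 187 CPM in the PDS controls (-0.56 ± 0.08, adjusted p = 0.00024). Mgst1, a membrane-bound glutathione transferase, had 20.6, 19.4 and 20.8 CPM with PDS, against 36.3, 42.1 and 43.5 CPM in the controls (-1.0 ± 0.12, adjusted p = 1.9e-05). The peroxidase Gpx1 had 339, 319 and 289 CPM with PDS, against 417, 484 and 462 CPM in the controls (-0.53 ± 0.11, adjusted p = 0.0055). Aox1 fell (-0.67 ± 0.12). Gsta1 is given above. Gsta4 (-0.68) was lost with PDS library 1 or 3 or PDS control 3 left out (adjusted p = 0.092 to 0.11). Gstp1 (-0.35) was lost with PDS library 3 or PDS control 2 or 3 left out (adjusted p = 0.054 to 0.071). Prdx6 (-0.24) was lost with PDS library 2 or 3 or PDS control 3 left out (adjusted p = 0.060 to 0.10). Sod2 (-0.26) was lost with PDS library 2 or 3 or PDS control 2 or 3 left out (adjusted p = 0.083 to 0.16). Gss (-0.25) was lost with any 1 of the 6 libraries left out (adjusted p = 0.081 to 0.18). Without PDS library 3 or PDS control 3, 5 genes of the list were called lower, and 7 without PDS control 2. Ahr, the aryl hydrocarbon receptor, had 35.3, 33.5 and 36.7 CPM with PDS, against 65.5, 53 and 53 CPM in the controls (-0.70 ± 0.14, adjusted p = 0.0041). In lipid synthesis 6 of 32 cholesterol genes were called lower and 0 higher, with Fdps at -0.46 ± 0.08 and Lss at -0.44 ± 0.07 among them. In the refits 3 or 4 were called lower, 3 without PDS control 2. The desaturase Scd fell (-0.45 ± 0.09). Of the enzymes of polyamine metabolism, Amd1 and Sat1 rose (0.49 ± 0.09 and 0.36 ± 0.07) and Odc1 was lower (-0.21), a call lost with PDS library 1, 2 or 3 or PDS control 2 or 3 left out (adjusted p = 0.056 to 0.10).

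Several groups of genes held few calls or none. The share called among all tested genes, 8.09%, comes to few genes in lists of this size, so counts of 0 or 1 do not set a list apart. Of 37 tested helicases and binding proteins of G-quadruplexes 1 was called higher and 0 lower. Recql4, a helicase, had 17.1, 17.4 and 14.7 CPM with PDS, against 12.9, 13.2 and 12.3 CPM in the controls (0.36 ± 0.10, adjusted p = 0.029), a call lost with PDS library 1 or 2 or PDS control 1, 2 or 3 left out (adjusted p = 0.062 to 0.12). In that list unadjusted p was under 0.05 for 8 higher and 2 lower genes, and DESeq2 called 2 higher and 1 lower. With edgeR 0 genes were called in several lists. These held 21 telomere and shelterin genes, 39 genes of RNA polymerase I and ribosome biogenesis and 25 chaperones and sensors of the unfolded protein response. They also held 25 cytosolic heat shock chaperones, 27 lysosomal hydrolases, 13 metallothioneins and zinc transporters and 13 genes of the mitochondrial chromosome. Unadjusted p was under 0.05 for 2 higher and 2 lower telomere genes, 4 and 1 of RNA polymerase I, 5 and 1 of the unfolded protein response and 6 and 1 heat shock chaperones. The same held for 2 and 2 lysosomal genes, 4 and 1 metallothionein and zinc genes, and 1 and 0 mitochondrial genes. DESeq2 called 0 higher and 1 lower of the telomere list, 1 and 0 of RNA polymerase I, 1 and 0 of the unfolded protein response, 2 and 0 heat shock chaperones, 0 and 1 lysosomal, 1 and 0 of the metallothionein list and 0 mitochondrial. Refits without 1 library called at most 1 gene of any of these lists. Of 51 chromatin remodellers and histone modifiers, 1 was called, the methyltransferase Ezh2 (0.35 ± 0.09), lost with PDS library 1, 2 or 3 or PDS control 2 or 3 left out (adjusted p = 0.056 to 0.16). Oncogenes whose promoter quadruplexes have been studied held more calls, with 4 of 22 called higher (18.2%, against 5.13% of all tested genes). Ccnd1 and Vegfa are given above, and Pdgfa (0.32) was lost with PDS library 3 or PDS control 3 left out (adjusted p = 0.062 to 0.065). Birc5 (0.30) was lost with PDS library 2 or 3 or PDS control 1 or 2 left out (adjusted p = 0.057 to 0.078). In the refit without PDS library 3, 2 genes of the list were called higher. Myc, the best known of them, had 22, 23.6 and 23.7 CPM with PDS, against 18.6, 18.9 and 18.8 CPM in the controls, without overlap, and did not pass the threshold (0.30 ± 0.10, adjusted p = 0.061).

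G-quadruplex motifs were then counted in promoters. The motif was 4 runs of at least 3 guanines parted by 1 to 7 bases, on either strand, in the window from 250 bases before to 50 after the start. Of 14184 tested genes 9667 matched the RefSeq table, and 9640 promoters were used. The motif was present in 150 of 532 promoters of genes called higher (28.2%, 95% Wilson interval 24.5% to 32.2%), in 90 of 298 of genes called lower (30.2%, 25.3% to 35.6%), and in 24.9% of genes not called. Its share was 25.2% of all tested genes (24.4% to 26.1%) and 17.0% of all promoters in the table. The intervals of the higher and the lower genes overlapped widely, and both shares were a few points above the rest. The interval of the higher genes held the shares of genes not called and of all tested genes. That of the lower genes began at 25.3%, next to the 25.2% of all tested genes. The difference was not tested. The median log2 fold change was 0.03 for genes with the motif and 0.02 for genes without it. Base composition differed little, with a median GC content of 62.3% in higher, 59.7% in lower and 61.0% in all tested promoters. Whether PDS acted at any of these sites was not measured. Stretches of 80 bases before the start are shown for 3 genes that rose and 3 that fell, with matches in capitals and strand and direction as above. Runs of C are runs of G on the other strand.
Plau, higher (chr15:3512038-3512117, minus strand): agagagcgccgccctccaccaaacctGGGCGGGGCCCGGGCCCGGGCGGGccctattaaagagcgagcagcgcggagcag
Vegfa, higher (chr9:22452752-22452831, plus strand): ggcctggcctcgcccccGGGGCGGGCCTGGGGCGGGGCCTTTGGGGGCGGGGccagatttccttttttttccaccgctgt
Ptgs2, higher (chr13:64713928-64714007, plus strand): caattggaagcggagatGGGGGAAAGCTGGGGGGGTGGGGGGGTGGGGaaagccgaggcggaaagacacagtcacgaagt
Npr3, lower (chr2:62658766-62658845, minus strand): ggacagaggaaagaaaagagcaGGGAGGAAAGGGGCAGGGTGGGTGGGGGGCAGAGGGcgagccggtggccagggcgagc
Cxcl12, lower (chr4:152060609-152060688, plus strand): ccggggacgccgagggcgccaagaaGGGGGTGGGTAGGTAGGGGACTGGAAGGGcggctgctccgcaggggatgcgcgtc
Flot1, lower (chr20:2932772-2932851, minus strand): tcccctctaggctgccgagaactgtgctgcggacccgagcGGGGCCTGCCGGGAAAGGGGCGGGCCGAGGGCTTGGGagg
Npr3, a natriuretic peptide clearance receptor, had 88.1, 92.1 and 92.3 CPM with PDS, against 166, 151 and 156 CPM in the controls (-0.80 ± 0.08, adjusted p = 3.5e-06). Flot1, a membrane scaffold protein, had 74.5, 71.5 and 63.5 CPM with PDS, against 121, 144 and 142 CPM in the controls (-0.96 ± 0.14, adjusted p = 0.00037). These 6 genes were chosen after their values and motifs were seen, as examples of the motif before genes called in either direction. They cannot show a link with PDS, since the motif was present in 25.2% of the promoters of all tested genes.

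**Figure D4:**
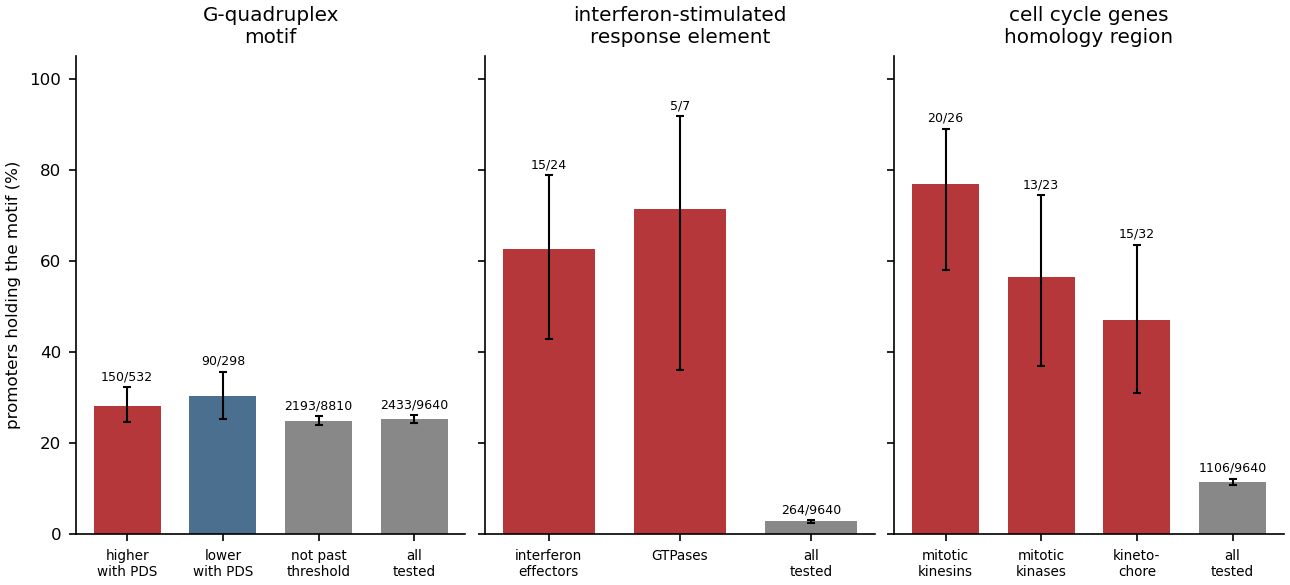
Percent of promoters holding each of 3 motifs, with bars for gene groups, black lines for 95% Wilson intervals (counting error only) and the number of promoters above. The G-quadruplex motif was present at 28.2% and 30.2% of higher and lower genes, against 25.2% of all tested genes. The other 2 panels show chosen lists, not called genes. The interferon element stood at 62.5% of interferon effectors and the cell cycle element at 76.9% of mitotic kinesins, against 2.74% and 11.5% of all tested genes. Among higher and lower genes, not drawn, the interferon element stood at 4.51% and 2.68%, and the cell cycle element at 20.9% and 9.73%.

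Whether these changes differed from those of the other 2 ligands was tested as a difference of effects, each compound against its own 3 controls, so that no control library was shared. Doses are not in the labels and cannot be matched. The effect of PDS differed from that of Phen-DC3 for 2862 of the 14184 genes (20.2%) and from that of Braco-19 for 1990 (14.0%). Both counts leaned on single libraries, with 1511 and 896 genes without PDS library 3, 1843 and 1123 without PDS control 2, and 1264 for Braco-19 without PDS library 2. Correction for gene length gave 1892 genes for Phen-DC3. Each of the 10 largest rises and 10 largest falls passed for Phen-DC3, and 7 of the rises and 9 of the falls passed for Braco-19. Genes picked for a large PDS change are more likely to pass, because the difference holds the PDS change itself. Bmp2 changed by 1.44 ± 0.15 with PDS, -0.08 ± 0.16 with Phen-DC3 (adjusted p of the difference 0.00048) and -0.12 ± 0.14 with Braco-19 (adjusted p = 0.00013). Pmepa1 changed by 1.10 ± 0.08, -0.22 ± 0.08 and -0.24 ± 0.08 in the same order (adjusted p = 2.9e-06 and 1.1e-06). Chsy3 changed by 1.18 ± 0.09, -0.12 ± 0.09 and -0.44 ± 0.09 (adjusted p = 1.0e-05 and 3.0e-07), and Scara5 by -1.24 ± 0.08, -0.09 ± 0.07 and 0.15 ± 0.08 (adjusted p = 2.9e-06 and 3.0e-07). For these 4 genes the change with PDS was the largest of the 3.

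Of 4 interferon-induced genes compared, each passed for Phen-DC3 and 1 for Braco-19. Cxcl10 changed by 1.97 ± 0.23 with PDS, 0.18 ± 0.24 with Phen-DC3 (adjusted p of the difference 0.0043) and 0.60 ± 0.22 with Braco-19 (adjusted p = 0.016). Isg15 changed by 1.39 ± 0.20, 0.27 ± 0.20 and 0.92 ± 0.20 (adjusted p = 0.013 and 0.26), and Mx2 by 1.83 ± 0.34, -0.26 ± 0.38 and 1.44 ± 0.37 (adjusted p = 0.0096 and 0.63). Ccl5 changed by 1.47 ± 0.24, 0.29 ± 0.25 and 1.26 ± 0.25 (adjusted p = 0.023 and 0.71). Isg15, Mx2 and Ccl5 thus did not pass for a difference between PDS and Braco-19, which does not show that their responses were alike. Among mitotic genes, Ckap2 changed by 0.90 ± 0.09, -0.11 ± 0.09 and 0.01 ± 0.08 (adjusted p = 8.7e-05 and 0.00013), and Kif23 by 0.72 ± 0.11, -0.29 ± 0.11 and -0.21 ± 0.11 (adjusted p = 0.00078 and 0.00098). Cdkn1a changed by 0.34 ± 0.07, 0.28 ± 0.07 and 0.21 ± 0.07, with no difference past the threshold (adjusted p = 0.73 and 0.40). The libraries of Braco-19 and its controls came from a different baseline, with 23.3% to 25.4% of counts in genes over 5000 bases long, against 8.35% to 8.91% with PDS and 7.98% to 9.08% in the PDS controls. For Phen-DC3 this share was 7.42% to 8.43% with the compound and 9.26% to 10.7% in its controls, without overlap. The part of the Braco-19 baseline or of this Phen-DC3 shift in the differences was not tested. Within the PDS comparison, log2 fold changes also rose weakly with gene length (Spearman correlation 0.174 over all tested genes). With the correction for gene length, 634 of the 728 higher and 411 of the 420 lower genes were still called.

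**Figure D5:**
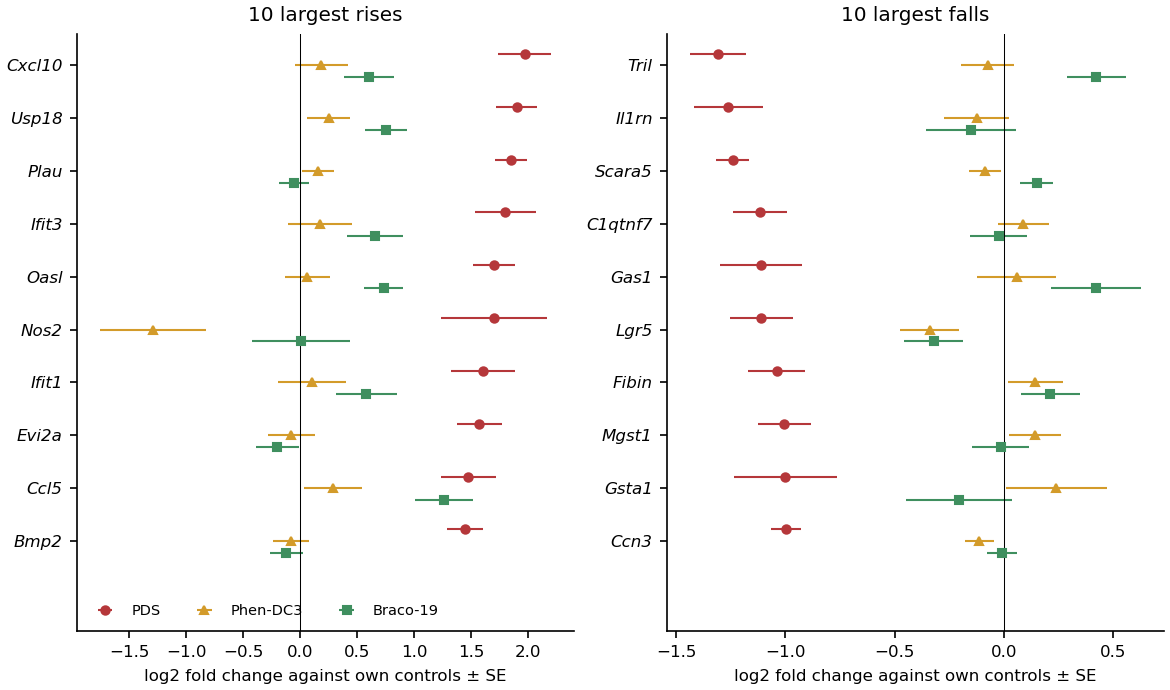
Log2 fold change against own controls, with standard errors, of the 10 largest rises (left) and 10 largest falls (right) under PDS, for PDS, Phen-DC3 and Braco-19. PDS points lie farthest from 0 for all 20 genes, and the Braco-19 value of Ccl5, at 1.26, is the closest to that of PDS.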

How the data were processed

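RNA of 18 libraries was sequenced, and the authors deposited raw counts of reads per gene in 1 table, with gene length, position and annotation beside each gene. The submitters' processing notes name CASAVA, HISAT2 and featureCounts 1.5.0-p3. Genome build, annotation and strand setting were not given in the sources used here, so reads of overlapping or antisense genes cannot be told apart. Without molecular identifiers, reads are not independent molecules.

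From the counts, edgeR 4.0.16 was fitted to all 18 libraries with 1 mean per group (TMM scaling, filterByExpr, robust quasi-likelihood), which left 14184 of 33898 genes. Groups and comparisons follow the labels, and PDS was contrasted with PDS control. The other compounds were compared by interaction contrasts. Adjusted p-values are Benjamini-Hochberg over all tested genes, with a threshold of 0.05. The steps were tested on simulated data. Members of a list are described by counts and medians. Alternatives were other scalings, no filter, DESeq2 1.42.0, 6 libraries alone, a replicate block, a length correction, pooled controls and leaving out each library. Named genes are the 10 with the largest change in each direction among called genes with separated groups and a mean log2 CPM of at least 3, the 5 most abundant called in each direction (those without a gene symbol are not described), the members of a list with the lowest p (at most 5 a list), and a few set genes such as Sox9 and Myc. Of these, the ones the text needs are given. The comparison, the gene lists and the motifs were chosen with earlier results of these data known, and further list members were named after their values were seen. Promoters are RefSeq sequences of build GRCr8, matched by symbol or gene ID. The files were searched for interferon ligands after the effectors had been seen. Results of a few genes are not reported here.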

Additional observations from a re-analysis of the deposited data

How the results depend on the processing

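Higher genes outnumbered lower ones in each setting except the fit of the 6 libraries alone, while the counts varied. Higher and lower genes numbered 662 and 456 with DESeq2's size factors, 534 and 433 with no count filter, 685 and 539 with a correction for gene length, 811 and 592 with DESeq2, and 987 and 1066 with the 6 libraries fitted alone. Leaving out 1 library gave 372 to 560 higher and 191 to 307 lower genes, 1511 to 2827 differences from Phen-DC3 and 896 to 1764 from Braco-19. With all 9 controls pooled, 67 and 35 genes were called, and the log2 fold changes of 51 named genes changed sign, with Adam12 (-0.22), Adamts7 (-0.74), Adar (-0.14), Amd1 (-0.012), Angptl4 (0.02), Anln (-0.58), Brca1 (-0.92), Bub1b (-0.15), Ccna2 (-0.47), Dusp5 (-0.03), Extl3 (-0.26), Ezh2 (-0.27), Gdf11 (0.055), Grem1 (-0.14), Gss (0.10), Has2 (-0.27), Herc6 (-0.35), Hif1a (-0.34), Hmmr (-0.54), Hmox1 (0.086), Il11ra1 (0.041), Il1rl1 (-1.12), Inhba (-1.77), Itga2 (-0.85), Itga8 (-0.92), Kif23 (-0.41), Mki67 (-2.35), Mmp3 (-0.055), Myc (-0.066), Ncam1 (-0.32), Npas2 (-0.63), Parp14 (-0.001), Pcolce (0.005), Plk1 (-0.17), Pmaip1 (-0.11), Postn (-0.16), Prdx6 (0.13), Ptgs2 (-0.61), Recql4 (-0.25), Serpinh1 (0.048), Skil (-0.81), Smurf2 (-0.03), Sod2 (0.046), Spred2 (-0.12), Tnc (-0.38), Tnfaip3 (-0.10), Vcan (-0.98), Sox9 (-0.12), Ifi35 (0.21), Ifitm2 (0.14) and Ifitm3 (0.15). Without 1 library, Adamts4 ran from -0.243 to 0.020, and it was not called in any. The cause was not tested. Differences from Phen-DC3 numbered 1892 with the length correction. With loops of up to 12 bases, the G-quadruplex motif was present in 42.5% of promoters of higher genes, 44.6% of lower genes and 39.6% of all tested genes, and in the 250 bases before the start alone it was in 22.8% of all tested genes.

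With the replicate number as a block, 378 higher and 209 lower genes were called, 1161 differences from Phen-DC3 and 661 from Braco-19. The block with the length correction gave 432 higher genes, 691 differences from Phen-DC3 and 1058 from Braco-19. The labels do not say whether libraries that share a number share anything else. Their deviations from the group means were nearly uncorrelated (r = -0.0413, 0.0956 and 0.0120 for numbers 1, 2 and 3). With 3 libraries a group, such values cannot decide whether a batch or culture was shared. Of the PDS libraries, 1 correlated best with the control of its own number.

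The comparison rests on 3 libraries a group. At the depth of these libraries, genes below 1 CPM were called in 1.16% of cases, against 8.09% of all tested genes.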

Other observations

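Groups of genes outside the comparisons above gave smaller patterns. Of 30 tested contractile and actin genes, 3 were called higher and 1 lower (13.3%, against 8.09% of all tested genes). Mylk, the kinase that activates smooth muscle myosin, had 12.6, 12.4 and 11.8 CPM with PDS, against 19.5, 22.6 and 21.3 CPM in the controls (-0.78 ± 0.13, adjusted p = 0.00047), while Pdlim7, a protein of actin fibres, rose by 0.42 ± 0.09. Tagln, an actin-binding protein of smooth muscle, had 1897, 1849 and 1737 CPM with PDS, against 1225, 1346 and 1338 CPM in the controls (0.49 ± 0.11, adjusted p = 0.012), a call lost with PDS control 1 left out (adjusted p = 0.053). Among 22 circadian clock genes, Npas2, a partner of the core clock factor, rose by 0.72 ± 0.14. Vldlr, a lipoprotein receptor, rose by 0.94 ± 0.12. Gabarapl1, an autophagy protein, fell (-0.63 ± 0.12), and so did Gsdmd, the pore-forming protein of pyroptosis (-0.59 ± 0.09). Markers of Schwann cells and glia also fell. S100b had 42.3, 39 and 35.6 CPM with PDS, against 49.5, 49.4 and 58.2 CPM in the controls (-0.43 ± 0.09, adjusted p = 0.0054). Gfap had 12.5, 15.7 and 16.1 CPM with PDS, against 24.5, 24.1 and 25.5 CPM in the controls (-0.74 ± 0.11, adjusted p = 0.00032).

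Genes annotated as transcription factors in the deposited table were called less often than tested genes as a whole. Of 976 tested, 37 were higher (3.79%) and 20 lower (2.05%), against 5.13% and 2.96% of all tested genes, a difference that was not tested. Of 379 with C2H2 zinc fingers, 5 were higher and 7 lower. Among those that changed, Gata4, a factor of heart and gut development, had 2.55, 2.16 and 1.64 CPM with PDS, against 1.03, 1.12 and 0.839 CPM in the controls (1.08 ± 0.30, adjusted p = 0.027), a call lost with PDS library 1 or 2 or PDS control 1, 2 or 3 left out (adjusted p = 0.058 to 0.11). Klf15, another transcription factor, had 20.9, 24.6 and 23 CPM with PDS, against 34.9, 36.1 and 36.4 CPM in the controls (-0.65 ± 0.10, adjusted p = 0.00019). Of 231 solute carriers, 13 were higher and 15 lower. Slc20a1, a phosphate importer, rose by 0.60 ± 0.07 and Slc29a1, a nucleoside transporter, by 0.50 ± 0.06. The serotonin transporter Slc6a4 had 18.1, 17.7 and 18.4 CPM with PDS, against 34.2, 32 and 32.3 CPM in the controls (-0.86 ± 0.10, adjusted p = 1.3e-05). The share of genes called rose with level, at 1.16% below 1 CPM, 5.01% from 1 to 10 CPM, 10.1% from 10 to 100 CPM and 20.5% above 1000 CPM. Genes and classes named here were chosen after their values were seen.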
